A study of Rattus norvegicus and Mus musculus with 25 samples.

Results

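Myosin chains of the ventricle and load-responsive genes were followed through 25 RNA-seq libraries of newborn heart muscle cells. The genes were Myh6, Myh7, Myl2, Myl3, Nppb, Acta1, Ankrd1 and Rcan1, chosen by symbol, and all 8 were found among the 28905 genes of each of 2 rat tables and the 54083 genes of the mouse table. Levels are in CPM, values that the depositors scaled so that each library sums to 1000000. The rat cells were neonatal ventricular cardiomyocytes of 1-day-old Sprague-Dawley (SD) rats, isolated by digestion and depleted of fast-attaching cells by pre-plating, in 8 groups of 2 libraries. The siRNA groups were si-Vldlr with si-Control_v and si-Thbs1 with si-Control_t, each transfected at 50 nM for 60 h. Reelin was added for 48 h against PBS, its dose not being given in the sources used here. The group labelled Vldlr OE is described in the protocol as AAV9-cTnT-Vldlr for 72 h, a virus that expresses Vldlr from a cardiac troponin T promoter, and the comparator named there is AAV9-CMV-GFP. Its 2 comparator libraries are labelled Control. Their columns are named Blank and were assigned by elimination, so each Vldlr OE comparison rests on that assignment. Neither name says whether a virus was added. The mouse cells were cardiomyocytes of 1-day-old C57BL/6 mice in 3 groups of 3: Vldlr f/f with both Vldlr copies floxed and no Cre, Myh6-Cre;Vldlr f/+ with 1 floxed copy, and Myh6-Cre;Vldlr f/f with both floxed. The Cre recombinase is named for Myh6, itself a gene described here, whose promoter drives it in cardiomyocytes, and no group has Cre without a floxed copy. The labels do not say whether libraries came from separate litters, animals or cultures, so p-values measure only the spread between these libraries.

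Vldlr encodes the very low density lipoprotein receptor, and the series title names Reelin and thrombospondin-1 (gene Thbs1) as regulators of cardiomyocyte proliferation through it. Myosin is the motor of the sarcomere, a hexamer of heavy chains with essential and regulatory light chains. Rodent hearts switch around birth from the slow β heavy chain (Myh7) to the fast α heavy chain (Myh6), a switch that thyroid hormone promotes and that pressure load partly undoes. Load and hypertrophic signalling also raise Nppb (B-type natriuretic peptide), Acta1 (the skeletal α-actin that fetal hearts use), Ankrd1 (a stretch-responsive protein of the titin I-band) and Rcan1 (an inhibitor of calcineurin that calcineurin signalling itself induces). Myl2 is the regulatory light chain of the ventricle and Myl3 its essential light chain.

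The heavy chain genes are close copies, which bears on how their reads can be counted. In mouse (GENCODE M21, GRCm38/mm10) they lie in tandem on the minus strand of chromosome 14, Myh6 at chr14:54941921-54966927 and Myh7 at chr14:54970684-54994626, with 3756 bases between them. Their coding sequences align over 5805 bases, of which 5314 (91.5%) are identical. The window below with the fewest shared bases has 45 of 75 positions in common, and capitals mark the 30 that differ (Myh6 coding bases 3237 to 3311, Myh7 coding bases 3231 to 3305).
Myh6: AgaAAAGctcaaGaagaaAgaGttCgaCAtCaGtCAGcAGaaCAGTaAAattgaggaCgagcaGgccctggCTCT
Myh7: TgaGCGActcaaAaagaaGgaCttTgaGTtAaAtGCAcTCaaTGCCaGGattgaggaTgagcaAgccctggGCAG
By contrast, coding bases 214 to 288 are the same in both genes, and a read from them names neither.
Myh6 and Myh7: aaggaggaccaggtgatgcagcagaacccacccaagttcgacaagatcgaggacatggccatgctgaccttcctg
Of all 75-base windows of the Myh6 transcript, 15.8% are found unchanged in Myh7, and 15.5% of those of Myh7 in Myh6, falling to 5.63% and 5.51% at 150 bases. Myl2, Myl3, Nppb, Ankrd1 and Rcan1 shared no 75-base window with another gene, and Acta1 shared 0.437% with Actb and a predicted gene. The sources used here do not say how shared reads were assigned. The 3' part of mouse Myh7 is also overlapped on the other strand by the antisense gene Mhrt (chr14:54968678-54974349), which was listed at 8.41 to 52.6 CPM. Pth1r overlaps Myl3 on the other strand (17.9 to 26.2 CPM). The sources used here do not say whether counting used strand, so reads of such pairs in the overlap cannot be told apart. Of the other mouse genes, Myl2 lies at chr5:122100951-122113472, Myl3 at chr9:110741861-110769798, Nppb at chr4:147985788-147987205 and Acta1 at chr8:123891769-123894751. Ankrd1 lies at chr19:36111961-36120099 and Rcan1 at chr16:92391953-92470867.

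Natriuretic peptide and skeletal actin genes are textbook readouts of muscle transcription factors, and these were the members with the widest range over the 4 libraries of the si-Thbs1 table. Their rat promoters are shown from RefSeq (build GRCr8, from 250 bases before the start site to 50 after). RefSeq promoters were found for 6 of the 8 genes, all but Myl2 and Ankrd1. Capitals mark exact matches, on either strand, to the MCAT element bound by TEAD factors, searched as CATTCC, and to a TATA box, searched as TATAAA. They also mark a site for GATA factors, searched as AGATAA, an E-box, searched as CAGCTG, and the CArG box of SRF.
Nppb, chr5:163699758-163700057, plus strand: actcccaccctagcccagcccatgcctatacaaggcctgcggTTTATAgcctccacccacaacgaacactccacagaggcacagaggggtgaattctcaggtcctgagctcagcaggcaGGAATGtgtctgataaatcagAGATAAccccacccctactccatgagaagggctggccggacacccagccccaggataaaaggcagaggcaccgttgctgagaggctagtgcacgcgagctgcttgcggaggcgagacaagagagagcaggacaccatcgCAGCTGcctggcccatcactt
Acta1, chr19:68784145-68784444, minus strand: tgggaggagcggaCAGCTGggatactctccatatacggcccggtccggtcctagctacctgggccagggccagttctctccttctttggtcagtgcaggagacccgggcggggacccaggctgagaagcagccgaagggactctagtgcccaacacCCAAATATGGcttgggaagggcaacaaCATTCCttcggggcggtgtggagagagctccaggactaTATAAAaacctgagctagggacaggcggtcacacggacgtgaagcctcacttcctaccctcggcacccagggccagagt
CATTCC was present in both, at position -131 on the other strand in Nppb and -67 in Acta1, and in 14.2% of the 33469 rat promoters of this length. Acta1 also held a CArG box at -94, a motif found in 1.64% of promoters, and TATAAA at -29 (14.2% of promoters). Nppb held AGATAA at -110 (11.6%), TATAAA on the other strand at -208, and CAGCTG at 30 (15.1%), which Acta1 held at -237. No 2 of these matches overlapped. Among the other 4 promoters, CATTCC was in Myh6 at -23 and in Myl3 at -189 and -161. The CArG box was in Myl3 at -97, and CAGCTG was in Myh6 at -45 and in Myh7 at -19. The Myh7 stretch, however, reads like an intron end up to the listed start, with an ATG soon after. It may therefore not be the Myh7 promoter, and neither a match nor a missing match in it describes that promoter. TATAAA was in Rcan1 on both strands, at -60 and -58, where the matches overlap, and the MEF2 motif (0.565% of promoters) was in none of the 6. These are matches of letters and were not tested for binding.

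The cell type in the labels was set beside marker genes. The fibroblast marker sum (8 genes) was 28089 to 46458 CPM in the rat libraries and 2972 to 5624 CPM in mouse. That of cardiomyocyte markers (8 of 10 in rat, Ttn and Tcap not being in the tables) was 7001 to 12055 CPM in rat and 20981 to 29389 CPM in mouse, with no listed gene at 0. In all 16 rat libraries, labelled as cardiomyocytes, the fibroblast sum was the higher. In these bulk samples, fewer cells of a type and less RNA per cell cannot be told apart. Vldlr was 183 and 171 CPM after si-Vldlr against 252 and 257, and 656 and 889 in Vldlr OE against 577 and 379. Thbs1 was 745 and 546 after si-Thbs1 against 943 and 892. In mouse, Vldlr was 71.3 to 85.1 CPM in Myh6-Cre;Vldlr f/f, 98.4 to 112 in Myh6-Cre;Vldlr f/+ and 109 to 195 in Vldlr f/f. Depth is known only as 66088372 to 97773385 steps per library. A step was taken as the most common nonzero value of a library divided by 4, and it need not be a read. No counting interval is therefore given.

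None of the 8 genes passed the test in any of the 7 comparisons (limma on log2(CPM + 1), adjusted over all genes, threshold 0.05). At an unadjusted p under 0.05 there were 2 in si-Vldlr (Myh6 and Myl2), 1 in Myh6-Cre;Vldlr f/+ relative to Vldlr f/f (Myh7) and 0 in the other 5. Calls were rare among all genes too: the share of all tested genes called was 0.0289% with si-Vldlr, 0.0144% with Reelin, 0.00722% in Vldlr OE, 0.0447% with si-Thbs1, and 0% in each of the 3 mouse comparisons. At an unadjusted p under 0.05 these held 1630, 189, 626, 741, 453, 362 and 138 genes, in the order si-Vldlr, Reelin, Vldlr OE, si-Thbs1, and in mouse Vldlr f/f compared with Myh6-Cre;Vldlr f/f, then with Myh6-Cre;Vldlr f/+, then the Cre genotypes compared with each other. The genes tested numbered 13860 for each of si-Vldlr, Reelin and Vldlr OE, 13416 for si-Thbs1 and 14922 in each mouse comparison. The few calls were Abhd10, LOC100910669, Nefm and Olr1 for si-Vldlr, Impad1 and LOC108348173 for Reelin, and LOC100910669 for Vldlr OE, with 6 further genes for si-Thbs1, named after their values were seen.

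The heavy chain balance differed between the rat cultures and the mouse cells in every library. Myh7 exceeded Myh6 in all 16 rat libraries, by 3.58 to 10.4 times in CPM, and Myh6 exceeded Myh7 in all 9 mouse libraries, by 1.76 to 36.0 times. Per transcript length (6008 and 6135 bases), the mouse ratio of Myh6 to Myh7 was 1.80 to 36.7. The species differ here also in culture, preparation, table and annotation, so species and these cannot be told apart, and no test was made between tables. Of the light chains, Myl2 was 73.7 to 293 CPM and Myl3 1640.2 to 3065 CPM in the rat libraries, where no lengths were at hand to compare them. In mouse Myl2 was 4682 to 7743 CPM and Myl3 3290.0 to 5135 CPM, and per transcript length Myl2 was 1.40 to 2.49 times Myl3.

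**Figure D1:**
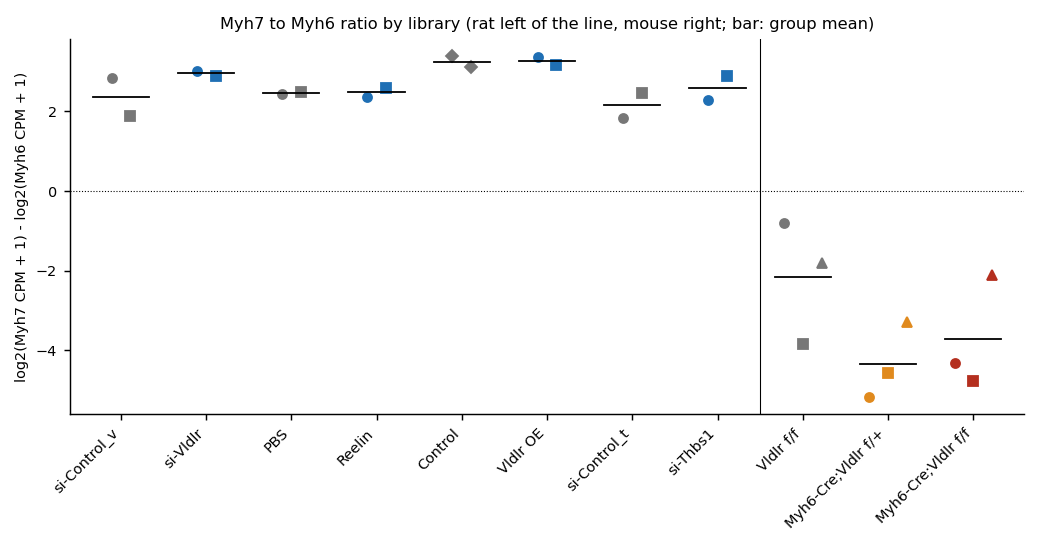
Difference between log2(Myh7 CPM + 1) and log2(Myh6 CPM + 1) in each of the 25 libraries (points, 2 per rat group and 3 per mouse genotype; circles, squares and triangles are replicates 1, 2 and 3, diamonds the Control columns; bars are group means). Rat libraries lie between 1.84 and 3.38, and mouse libraries between -5.17 and -0.81.

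Vldlr knockdown was set against its own control first. Myh6 was 942 and 1062 CPM in the si-Vldlr libraries (replicates 1 and 2, as in each list below) and 1166 and 2685 in si-Control_v. Replicate 2 of the control stood far above the other 3 libraries, and the groups did not overlap (log2 difference -0.82 ± 0.33 (SE), 95% interval -1.57 to -0.079, limma adjusted p = 0.397). Without that library the log2 difference of Myh6 was -0.22, and without the other control, replicate 1, it was -1.42 with limma adjusted p = 0.0405. Over all the alternatives that adjusted p ranged from 0.0405 to 0.978, so the call rests on which control library is used. Myh7 was 7671 and 7919.8 CPM against 8331 and 9959, all below the controls (log2 difference -0.22 ± 0.19 (SE), 95% interval -0.65 to 0.20, limma adjusted p = 0.658).

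The ventricular light chains had the same order. Myl2 was 133 and 94.1 CPM after si-Vldlr and 236 and 281 in its control, the lowest and the highest group means of the 6 groups in that table (log2 difference -1.20 ± 0.51 (SE), 95% interval -2.34 to -0.050, limma adjusted p = 0.414). It was also highly variable elsewhere: its Reelin libraries, 73.7 and 293 CPM, span every other value of the table. Myl3 was 1774 and 1899 CPM against 1933 and 2395 (log2 difference -0.23 ± 0.13 (SE), 95% interval -0.52 to 0.061, limma adjusted p = 0.518). Without si-Control_v replicate 2 the log2 differences were -0.096 for Myh7 and -0.075 for Myl3, and -1.07 for Myl2. Myh6, Myh7, Myl2 and Myl3 were lower in both si-Vldlr libraries than in both controls, 4 of the 8 genes, where 48.5% of all tested genes had groups that did not overlap. The summed cardiomyocyte markers were lower as well, 8159 and 8518 CPM against 9490.1 and 10315, while fibroblast markers overlapped. Smooth muscle and pericyte markers were higher, 3575 and 3656 CPM against 3135 and 2654, and the part of cell makeup in these values was not tested beyond the scaling that follows. Scaled to the cardiomyocyte markers, the log2 differences became -0.58 for Myh6, -0.95 for Myl2, 0.022 for Myh7 and 0.018 for Myl3, so the last 2 turned direction.

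None of the stress genes separated the si-Vldlr libraries from their controls. Nppb was 1083 and 1022 CPM after si-Vldlr against 1157 and 594, and Ankrd1 was 3996 and 3695 against 4461 and 2902. In both genes the si-Vldlr libraries lay between a high replicate 1 and a low replicate 2 of the control, the library in which Myh6 was high. Acta1 was 515 and 486 CPM against 613 and 478. Rcan1 was 250.2 and 267 against 283 and 229.8. Scaled to the cardiomyocyte markers, Nppb had a log2 difference of 0.59 (0.34 as deposited), Ankrd1 0.34 (0.095), Rcan1 0.26 (0.019) and Acta1 0.13, turned from -0.11. Over the 8 genes the median log2 difference as deposited was -0.17, beside -0.020 over all genes tested.

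**Figure D2:**
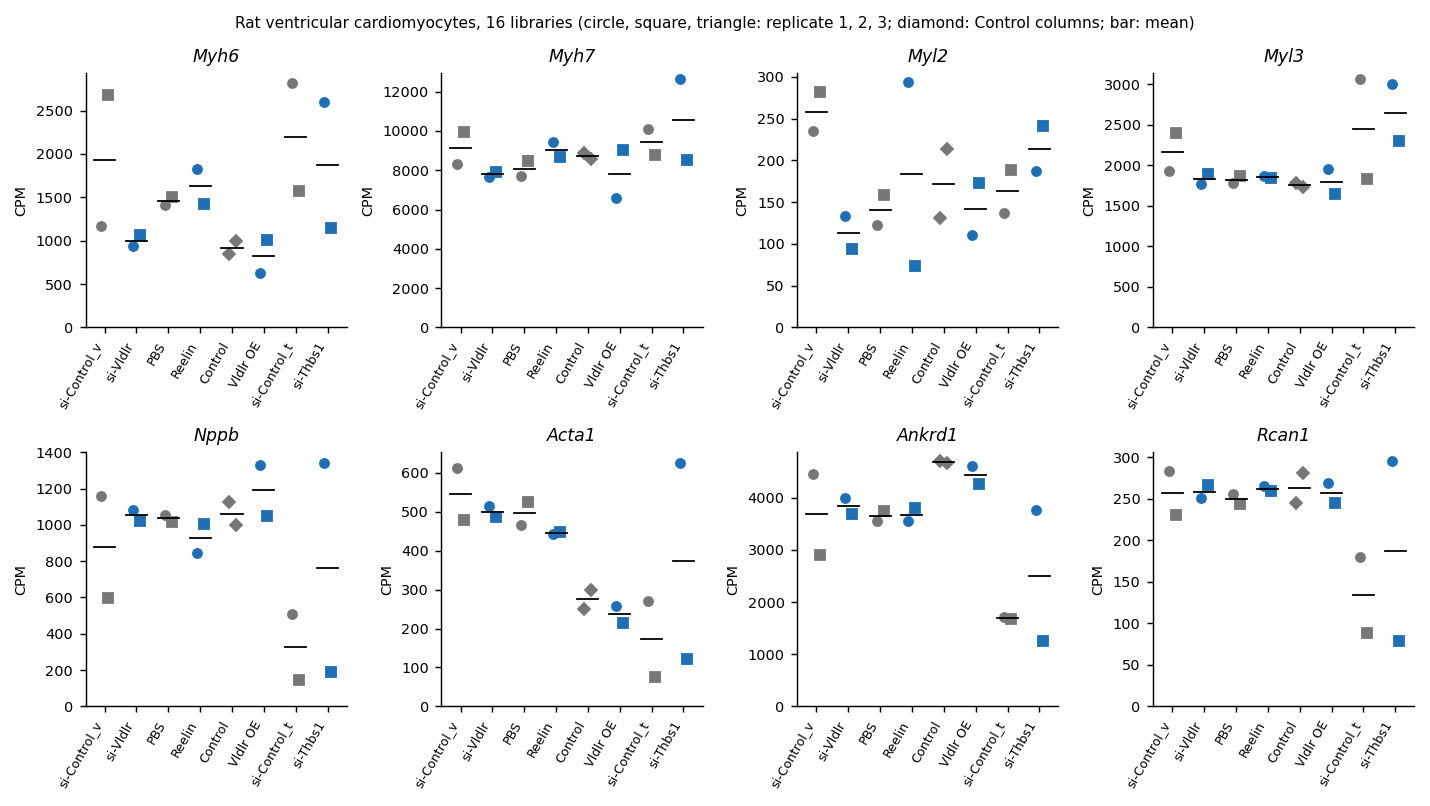
CPM of each of the 8 genes in the 16 rat libraries (points; circles and squares are replicates 1 and 2, diamonds the Control columns; bars are means of 2; grey for control groups, blue for treated; axes start at 0). Myh6, Myh7, Myl2 and Myl3 lie lower in both si-Vldlr libraries than in both si-Control_v libraries, and Acta1 lies at 299 CPM or below in the Control and Vldlr OE libraries and in 3 of the 4 libraries of the si-Thbs1 table.

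With Reelin the 95% interval of each member spanned 0, and the 4 whose groups did not overlap differed by 0.17 or less on the log2 scale. Myh7 was 9427 and 8657 CPM with Reelin and 7706 and 8461 with PBS, with no overlap (log2 difference 0.16 ± 0.19 (SE), 95% interval -0.26 to 0.58, limma adjusted p = 1.00). Myh6 was 1826 and 1427 against 1415 and 1501, a Reelin library on either side of PBS replicate 2. Acta1 was 442 and 447 CPM against 466.3 and 525.5, lower in both Reelin libraries (log2 difference -0.16 ± 0.14 (SE), 95% interval -0.47 to 0.16, limma adjusted p = 1.00).

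Nppb was 847 and 1003 CPM with Reelin against 1056 and 1015, also lower in both (log2 difference -0.17 ± 0.25 (SE), 95% interval -0.72 to 0.39, limma adjusted p = 1.00). Rcan1 was 265 and 259 against 256 and 244, higher in both by a small margin (log2 difference 0.068 ± 0.11 (SE), 95% interval -0.18 to 0.32, limma adjusted p = 1.00). With each library dropped in turn, the log2 differences spanned 0.095 to 0.23 for Myh7, -0.24 to -0.069 for Acta1, -0.29 to -0.045 for Nppb and 0.035 to 0.10 for Rcan1. The smallest sizes came without PBS replicate 1 for Myh7, Reelin replicate 1 for Nppb and PBS replicate 2 for Acta1 and Rcan1. These 4 of 8 genes without overlap stand beside 32.8% of all tested genes. Ankrd1 (3555 and 3802 against 3545 and 3746 CPM) and Myl3 (1864 and 1849 against 1777 and 1869) overlapped. The median of the 8 log2 differences was 0.048, beside 0.023 over all genes, and the 95% intervals of the 8 lay within -1.07 to 1.23.

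With AAV9-cTnT-Vldlr the heavy chains were 631 and 1009.6 CPM for Myh6, against 851 and 992 in the Control columns 1 and 2. Myh7 was 6565 and 9035 against 8892 and 8560.2. Replicate 1 of Vldlr OE held the lowest Myh6 and the lowest Myh7 of the 12 libraries, and replicate 2 lay above both controls in both genes. Ankrd1 was 4615 and 4269 CPM against 4702 and 4673, the only gene of the 8 whose groups did not overlap, beside 25.0% of all genes tested (log2 difference -0.079 ± 0.18 (SE), 95% interval -0.49 to 0.33, limma adjusted p = 0.983). Scaled to cardiomyocyte markers, which summed to 7001 and 7131 CPM against 7436 and 7610, the difference of Ankrd1 was 0.012, and it was -0.022 as deposited without Vldlr OE replicate 2. Nppb was 1329 and 1049.7 against 1125 and 999 CPM, Myl2 110.1 and 173 against 130.5 and 213, Myl3 1949 and 1640.2 against 1784 and 1733, and Rcan1 269 and 244 against 244 and 281, all overlapping.

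Acta1 set the Vldlr OE and Control libraries apart from the others of that table. Whether the Control libraries received a virus is not known from their labels. It was 259 and 214 CPM in Vldlr OE and 250.5 and 299 in Control, and 442 to 613 CPM in the 8 siRNA, Reelin and PBS libraries. Those 4 libraries and si-Control_v replicate 1 held the 5 highest Ankrd1 values of the 12. In the order of group means, Acta1 ran si-Control_v, si-Vldlr, PBS, Reelin, Control, Vldlr OE, and each neighbouring pair overlapped apart from PBS over Reelin and Reelin over Control. Myh6 ran si-Control_v, Reelin, PBS, si-Vldlr, Control, Vldlr OE, and only PBS over si-Vldlr did not overlap. The experiments differ in agent and in hours of treatment, and these levels were not tested against each other.

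Knockdown of Thbs1 was measured in a table of its own with 4 libraries. Nppb was 1340.5 and 189 CPM after si-Thbs1 and 509 and 144 in si-Control_t. Acta1 was 625.4 and 122 against 272 and 74.7. In both genes replicate 1 stood above replicate 2 in either group, and within a number the si-Thbs1 library was the higher. The summed atrial markers ran alike, 8902 and 4453 CPM against 5076 and 1179.6, and their part was not tested. Most of that sum was 1 gene, Nppa, at 8604 and 4225 CPM against 4815 and 989.

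Rcan1 was 295 and 79.0 CPM against 180.3 and 88.0, and Ankrd1 was 3769 and 1249 against 1717 and 1676. Here the si-Thbs1 library was the higher for number 1 and the lower for number 2. The heavy chains also followed the number: Myh6 was 2600.2 and 1144 against 2822 and 1576, lower after si-Thbs1 within each number, and Myh7 was 12634 and 8526 against 10109.8 and 8773. Of the light chains, Myl2 was 187 and 241 against 137 and 189 and Myl3 2998 and 2302 against 3065 and 1828. All 8 genes overlapped between the groups (0 of 8, beside 29.3% of all genes tested without overlap). The 95% intervals of their log2 differences reached from -1.65 to 3.43. Across the table the same-number libraries deviated together (r = 0.41 over genes). With 2 libraries per group, both same-number pairs must give the same r and the different-number pairs its negative. The pairs are therefore not separate evidence, and the numbers were not treated as a pairing.

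The Myh7 to Myh6 ratio, as log2(Myh7 CPM + 1) less log2(Myh6 CPM + 1), gave the following contrasts in rat. After si-Vldlr it was 2.96 ± 0.090 against 2.36 ± 0.67 (mean ± SD, n = 2 and 2), with no overlap (difference 0.60, two-sided exact permutation p = 0.333, adjusted over the 7 comparisons 0.778). Most of the spread lay in the control, whose libraries had Myh7 at 7.14 and 3.71 times Myh6, against 8.14 and 7.45 times after si-Vldlr. Without si-Control_v replicate 2 the difference was 0.13 and without replicate 1 it was 1.07. With 2 libraries against 2 the smallest p this test can give is 0.333, so no rat comparison could pass.

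With Reelin the ratio was 2.48 ± 0.16 against 2.47 ± 0.036 (mean ± SD, n = 2 and 2) (difference 0.015, two-sided exact permutation p = 1.00, adjusted over the 7 comparisons 1.00), and its sign turned without PBS replicate 1 (-0.010) or Reelin replicate 2 (-0.10). With Vldlr OE it was 3.27 ± 0.15 against 3.25 ± 0.19 (mean ± SD, n = 2 and 2) (difference 0.022, two-sided exact permutation p = 1.00, adjusted over the 7 comparisons 1.00), turning without Vldlr OE replicate 1 (-0.085) or Control column 2 (-0.11). After si-Thbs1 it was 2.59 ± 0.44 against 2.16 ± 0.45 (mean ± SD, n = 2 and 2) (difference 0.43, two-sided exact permutation p = 0.667, adjusted over the 7 comparisons 0.933), overlapping, yet higher after si-Thbs1 within each number: Myh7 was 4.86 against 3.58 times Myh6 for number 1, and 7.45 against 5.57 times for number 2.

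**Figure D3:**
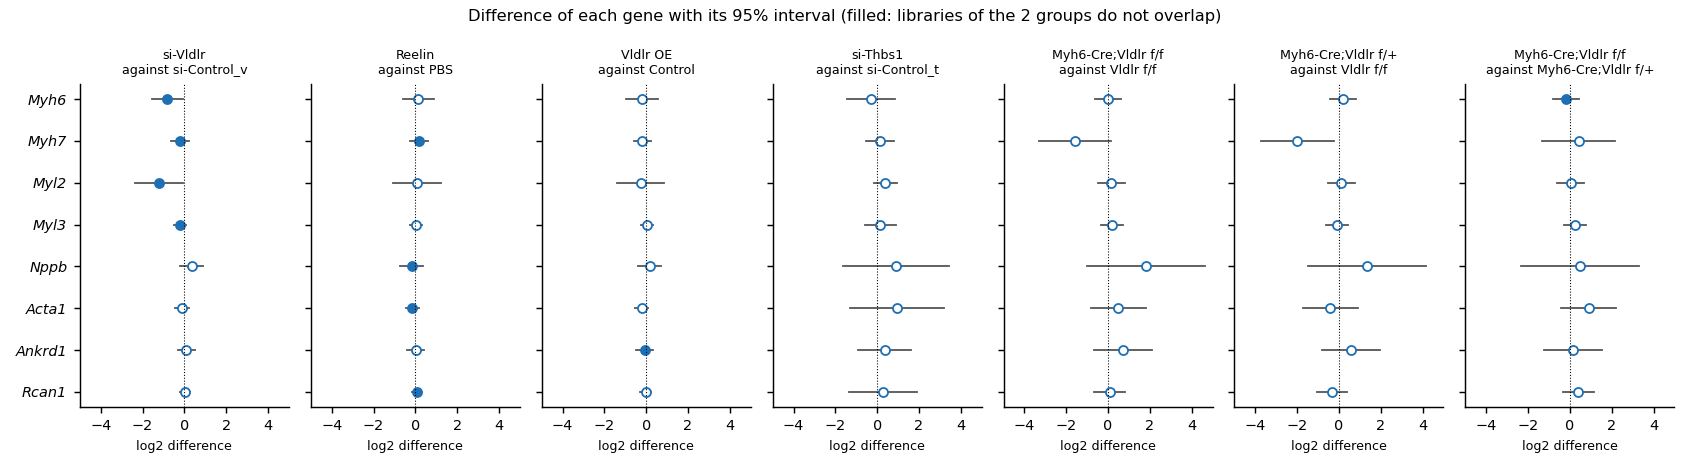
Log2 difference of each gene (points) with its 95% interval (lines) in the 7 comparisons, on the log2(CPM + 1) scale from limma; filled points mark genes whose libraries do not overlap between the groups. Intervals are mostly narrower in the 12-library rat table than for si-Thbs1 and mouse, and Myh7 lies to the left in both comparisons of a Cre genotype with Vldlr f/f.

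In mouse the heavy chain that varied was Myh7. It was 8892, 1405 and 4634 CPM over replicates 1 to 3 of Vldlr f/f, 538, 813 and 2106 in Myh6-Cre;Vldlr f/+ and 968, 656 and 3475 in Myh6-Cre;Vldlr f/f. Replicates 1 and 3 of Vldlr f/f were the highest of the 9 libraries, but replicate 2 lay within the range of both Cre genotypes. Both Cre genotypes were compared with the same Vldlr f/f controls, so the values are set side by side. By marker genes the sexes were unbalanced. Xist was 253 to 1129 CPM in all Myh6-Cre;Vldlr f/+ libraries, Vldlr f/f replicate 1 and Myh6-Cre;Vldlr f/f replicates 1 and 3. Vldlr f/f replicates 2 and 3 and Myh6-Cre;Vldlr f/f replicate 2 held at most 0.26 CPM. In these the Y-linked Ddx3y was 28.9 to 59.9 CPM, and at most 0.061 in the rest. The part of sex in these differences was not tested. In Myh6-Cre;Vldlr f/f, Myh7 had a log2 difference of -1.57 ± 0.78 (SE), 95% interval -3.30 to 0.16, limma adjusted p = 0.997. In Myh6-Cre;Vldlr f/+ it had a log2 difference of -1.99 ± 0.78 (SE), 95% interval -3.72 to -0.26, limma adjusted p = 0.999. Without Vldlr f/f replicate 1, the highest library, these log2 differences were -0.97 and -1.39. Every alternative that was run kept the negative sign of both, though no filter, 2 groups fitted alone and the replicate block cannot move a log2 difference. The mitochondrially encoded share of CPM ran against Myh7: it was 14.2, 15.8 and 15.97% in the 3 libraries highest in Myh7, the 3 lowest shares of the 9, and 21.4 and 24.7% in the 2 libraries lowest in Myh7, the 2 highest. Rescaled without mitochondrially encoded genes, the log2 differences of Myh7 were -1.50 and -1.95, and the share's part in the Myh7 values was not tested further.

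Myh6 was 15629.8, 20176 and 16188 CPM in Vldlr f/f, 19344, 19409 and 20459.9 in Myh6-Cre;Vldlr f/+ and 19313, 17963 and 14865 in Myh6-Cre;Vldlr f/f. All 3 Myh6-Cre;Vldlr f/f libraries lay below all 3 of Myh6-Cre;Vldlr f/+ (log2 difference -0.19 ± 0.28 (SE), 95% interval -0.80 to 0.42, limma adjusted p = 1.00), the 1 gene of 8 without overlap there, beside 2.49% of all genes. Without Myh6-Cre;Vldlr f/f replicate 3 this difference was -0.083. Neither Cre genotype was separated from Vldlr f/f in any of the 8 genes (0 of 8 in each, beside 8.52% of all genes with Myh6-Cre;Vldlr f/f, 5.97% with Myh6-Cre;Vldlr f/+). The libraries with much Myh7 had less Myh6: Vldlr f/f replicates 1 and 3 and Myh6-Cre;Vldlr f/f replicate 3 held both the 3 highest Myh7 and the 3 lowest Myh6 values.

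The ratio followed Myh7. For Myh6-Cre;Vldlr f/f its log2 value, set beside that of Vldlr f/f, was -3.73 ± 1.43 against -2.15 ± 1.54 (mean ± SD, n = 3 and 3) (difference -1.58, two-sided exact permutation p = 0.2, adjusted over the 7 comparisons 0.7). In Myh6-Cre;Vldlr f/+ against the same controls it was -4.34 ± 0.96 against -2.15 ± 1.54 (mean ± SD, n = 3 and 3) (difference -2.19, two-sided exact permutation p = 0.2, adjusted over the 7 comparisons 0.7). Myh6 was 1.76, 14.4 and 3.49 times Myh7 in the 3 Vldlr f/f libraries, and only replicate 2 lay within the range of the Cre genotypes (4.28 to 36.0). Between the Cre genotypes the difference was 0.61 (two-sided exact permutation p = 0.6, adjusted over the 7 comparisons 0.933), and -0.20 without Myh6-Cre;Vldlr f/f replicate 3. With 3 libraries against 3 the smallest p is 0.1.

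The light chains were steadier. Myl2 was 4682, 7095 and 4905 CPM in Vldlr f/f, 6373, 6656 and 4793 in Myh6-Cre;Vldlr f/+ and 7743, 6047 and 4750.4 in Myh6-Cre;Vldlr f/f. Myl3 was 4304, 4311 and 4049 CPM in Vldlr f/f, 3290.0, 4894 and 3956 in Myh6-Cre;Vldlr f/+ and 5135, 5064 and 4249 in Myh6-Cre;Vldlr f/f. Both overlapped in every comparison, and the highest library was 1.65 and 1.56 times the lowest, against 16.5 times for Myh7. The 2 lowest Myl2 values were in Vldlr f/f replicate 1 and Myh6-Cre;Vldlr f/f replicate 3, both high in Myh7.

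**Figure D4:**
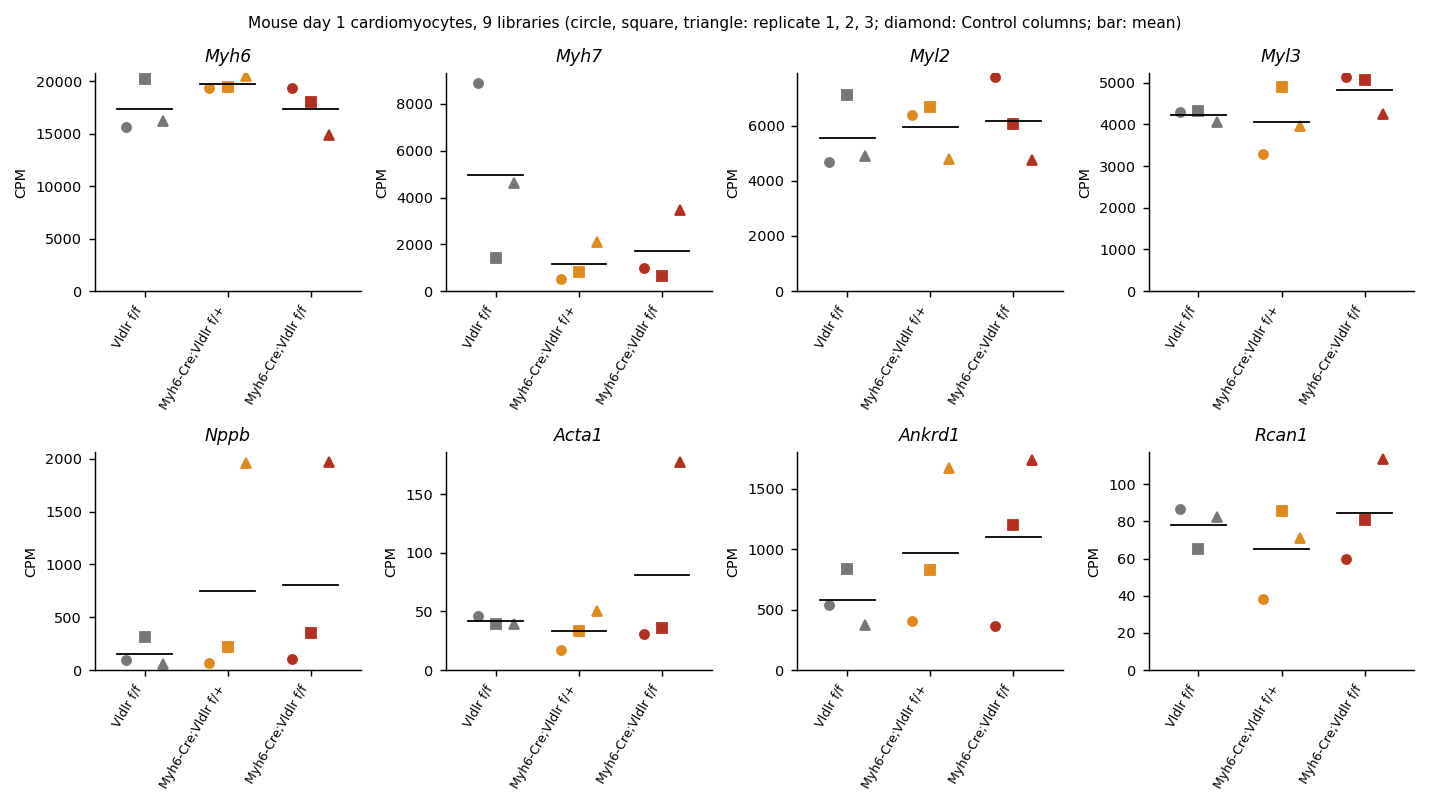
CPM of each of the 8 genes in the 9 mouse libraries (points; circles, squares and triangles are replicates 1, 2 and 3; bars are means of 3; axes start at 0). Myh7 is highest in replicates 1 and 3 of Vldlr f/f, and Nppb is at 1958 and 1967 CPM in replicate 3 of the Cre genotypes and at 354 CPM or less elsewhere.

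Nppb had the widest range of the 8 genes in mouse, 35.5 times from the lowest to the highest library. It was 94.8, 318 and 55.5 CPM in Vldlr f/f, 64.4, 222 and 1958 in Myh6-Cre;Vldlr f/+ and 109, 354 and 1967 in Myh6-Cre;Vldlr f/f. The number 3 libraries of both Cre genotypes were alike, and the next highest library held 354 CPM. Against Vldlr f/f the log2 difference of Nppb was 1.83 for Myh6-Cre;Vldlr f/f (limma adjusted p = 0.997) and 1.35 for Myh6-Cre;Vldlr f/+ (limma adjusted p = 0.999), with 95% intervals of -0.99 to 4.64 and -1.47 to 4.17. Without the number 3 library of the Cre genotype these became 0.72 and 0.010.

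Ankrd1 had the same libraries at the top. It was 540.1, 836 and 370.3 CPM in Vldlr f/f, 406, 827 and 1673 in Myh6-Cre;Vldlr f/+ and 363, 1196 and 1733 in Myh6-Cre;Vldlr f/f, overlapping in all comparisons. Its log2 difference from Vldlr f/f was 0.72 in Myh6-Cre;Vldlr f/f and 0.58 in Myh6-Cre;Vldlr f/+ (limma adjusted p = 0.997 and 0.999), and 0.26 and 0.073 without the number 3 library of each. Across the 9 mouse libraries log2 Nppb and log2 Ankrd1 had r = 0.95, and across the 12 of the larger rat table r = 0.82. These are descriptions over libraries that share groups and table. In that rat table both ran against Myh6 (r = -0.89 for Nppb and -0.88 for Ankrd1), with si-Control_v replicate 2 at 1 end, whereas in mouse Myh6 and Nppb had r = 0.021.

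**Figure D5:**
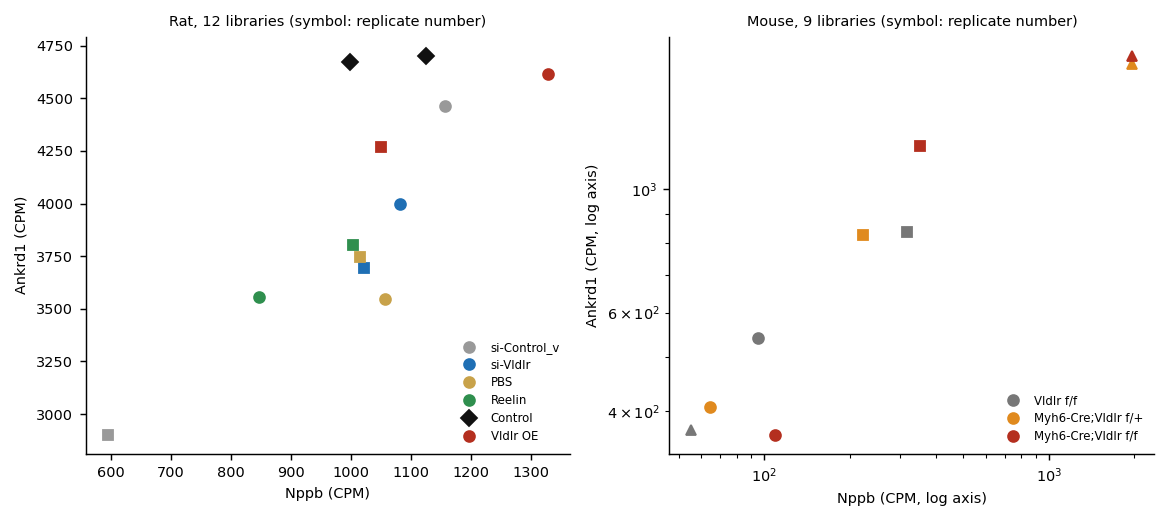
Ankrd1 against Nppb in CPM, each point 1 library (left, 12 rat libraries on linear axes; right, 9 mouse libraries on log axes; colours are groups, and circles, squares and triangles are replicates 1, 2 and 3, diamonds the Control columns). Rat si-Control_v replicate 2 lies lowest on both axes (594 CPM Nppb, 2902 CPM Ankrd1), and the number 3 libraries of both mouse Cre genotypes lie together at the top right.

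Acta1 stood out in 1 mouse library. It was 45.7, 39.5 and 39.3 CPM in Vldlr f/f, 17.4, 33.4 and 50.0 in Myh6-Cre;Vldlr f/+ and 30.7, 35.9 and 178 in Myh6-Cre;Vldlr f/f, so replicate 3 of the last stood alone. In that library the skeletal muscle markers, from a list that does not hold Acta1, summed to 214 CPM against 6.03 to 16.8 CPM in the other 8, and 8 of the 9 listed genes were at their highest there. Mylpf, the fast skeletal regulatory light chain, was 60.4 CPM (at most 2.16 elsewhere), and Myh8, the perinatal skeletal heavy chain, was 45.2 CPM (at most 3.25). The myogenic factors Myod1 and Myog were at 0.060 and 0.71 CPM. The part of skeletal muscle RNA in the Acta1 value was not tested. The log2 difference of Acta1 from Vldlr f/f was 0.48 for Myh6-Cre;Vldlr f/f (limma adjusted p = 0.997) and -0.31 without that library. Rcan1 was 86.5, 65.3 and 82.4 CPM in Vldlr f/f, 38.0, 85.8 and 71.1 in Myh6-Cre;Vldlr f/+ and 59.5, 80.6 and 113 in Myh6-Cre;Vldlr f/f, its highest value in the same library.

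Differences within a replicate number of the Cre genotypes are given as a description, since no label states that the numbers pair the libraries. The number 2 libraries differed in Xist, at 253 CPM in Myh6-Cre;Vldlr f/+ and 0.26 CPM in Myh6-Cre;Vldlr f/f. Myh6-Cre;Vldlr f/f less Myh6-Cre;Vldlr f/+, Acta1 had log2 differences of 0.78, 0.10 and 1.81 for numbers 1 to 3, positive in 3 of 3 pairs. Nppb had 0.75, 0.67 and 0.0066 and Myl3 0.64, 0.049 and 0.10, also positive in 3 of 3. Myh6 had -0.0024, -0.11 and -0.46, negative in all 3. For Myh7 the pairs did not share a sign (0.85, -0.31 and 0.72), nor for Ankrd1 (-0.16, 0.53 and 0.051), Rcan1 (0.63, -0.089 and 0.67) or Myl2 (0.28, -0.14 and -0.013). With the number as a block, none of the 8 genes passed the test (limma).

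In total 10 of the 56 gene and comparison pairs had groups that did not overlap (17.9%), beside 21.2% of all genes tested over the 7 comparisons (21195 of 99762). The sign of the log2 difference turned under at least 1 alternative in 35 of the 56, in 32 of them by leaving out a single library and in 7 by another setting. Myh6 after si-Vldlr was the only pair called under any alternative.

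Related genes from 9 lists (100 genes beyond the 8 members, the lists overlapping, and the list of hypertrophy markers holding 6 of the members) gave no call in any of the 7 comparisons, against the background shares above. After si-Vldlr, 9 of 11 tested genes of other striated myosins and 10 of 11 of the thin filament had negative log2 differences, with medians of -0.23 and -0.23 beside -0.020 over all genes. These are the same libraries in which cardiomyocyte markers summed lower. The markers are not independent of these lists: Tnnt2, Tnnc1 and Tnni3 are also in the thin filament list and Mybpc3 in that of myosins. Myh7b, a further slow myosin heavy chain, led the first list at 27.0 and 38.5 against 72.5 and 122 CPM (log2 difference -1.51, limma adjusted p = 0.329). Tnni3, the cardiac inhibitory troponin, led the other at 349.9 and 377 against 443 and 582 CPM (log2 difference -0.48, limma adjusted p = 0.286).

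The smallest adjusted p of any listed gene was that of Mme, neprilysin, a protease that degrades natriuretic peptides, at 23.5 and 23.4 CPM after si-Vldlr against 13.5 and 12.02 (log2 difference 0.83, limma adjusted p = 0.0848). Of the 8 tested genes of natriuretic peptide production and clearance, 4 were higher and 4 lower. YAP target genes had 7 of 8 positive log2 differences, led by Ctgf, a connective tissue growth factor, at 1826 and 1694 against 1527 and 1235 CPM (log2 difference 0.36, limma adjusted p = 0.343). Genes of calcineurin and NFAT signalling had 9 of 13 negative, led by Rcan2, a relative of Rcan1, at 109.9 and 129 against 136 and 197 CPM. Thra, the thyroid hormone receptor α, led 7 of 9 negative genes of its list at 81.9 and 88.7 against 100.0 and 113 CPM. The list medians were 0.11 for YAP targets, -0.046 for calcineurin and NFAT and -0.13 for thyroid hormone, beside -0.020 over all genes.

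With Reelin the 8 tested YAP target genes all had positive log2 differences, with a median of 0.048 beside 0.023 over all genes. Titin and Z-disc genes had 10 of 11 positive (median 0.036), led by Ldb3, which encodes the Z-disc protein Cypher. Ldb3 was 662 and 387 CPM with Reelin, replicate 1 standing apart, against 380.3 and 376 (log2 difference 0.42, limma adjusted p = 1.00). In Vldlr OE the same gene was 574 and 381 against 676 and 694 CPM (log2 difference -0.55, limma adjusted p = 0.958). Transcription factors of muscle genes had 12 of 14 negative there (median -0.19, beside -0.026 over all genes), as had 8 of 9 genes of thyroid hormone action (median -0.16) and other striated myosins 10 of 11 (median -0.13).

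Nppa, the atrial natriuretic peptide encoded beside Nppb in the genome, was 8216 and 7787 CPM in Vldlr OE against 6891 and 6457 (log2 difference 0.26, limma adjusted p = 0.958). After si-Thbs1 it was 8604 and 4225 against 4815 and 989 (log2 difference 1.47, limma adjusted p = 1.00), higher within each number as Nppb was. Xirp2, an actin-binding protein of the intercalated disc and Z-disc, was 254 and 138 CPM after si-Thbs1 against 105 and 65.7, with no overlap (log2 difference 1.16, limma adjusted p = 0.658). Hypertrophy markers, 6 of them members, had 10 of 14 positive in this comparison (median 0.32, beside 0.032 over all genes).

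In mouse several genes that led the lists varied widely between libraries of 1 genotype. Against Vldlr f/f, 13 of 14 muscle transcription factors had negative log2 differences in Myh6-Cre;Vldlr f/f (median -0.30, beside -0.11 over all genes). In Myh6-Cre;Vldlr f/+ there were 11 of 14 (median -0.14, beside -0.057). Genes of thyroid hormone action had 8 of 10 and 9 of 10 negative in the same order (medians -0.25 and -0.16). Tead1, the TEAD factor whose family binds MCAT elements, was 19.4, 16.5 and 14.1 CPM in Vldlr f/f, 155, 20.02 and 87.9 in Myh6-Cre;Vldlr f/+ and 2.32, 21.1 and 7.93 in Myh6-Cre;Vldlr f/f. Its Myh6-Cre;Vldlr f/+ libraries all lay above those of Vldlr f/f (log2 difference 1.92, limma adjusted p = 0.999).

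Myl7, the atrial regulatory light chain, was 2091, 946 and 748 CPM in Myh6-Cre;Vldlr f/+, above all 3 libraries of Vldlr f/f (629, 453 and 183) and of Myh6-Cre;Vldlr f/f (734, 359 and 364). Its log2 difference was 1.61 from Vldlr f/f. It was -1.31 for Myh6-Cre;Vldlr f/f less Myh6-Cre;Vldlr f/+ (limma adjusted p = 0.999 and 1.00). The summed atrial markers, a list of 7 genes that includes Nppa, were 11157, 5563 and 9284 CPM in Myh6-Cre;Vldlr f/+, 5765, 2751 and 6039 in Myh6-Cre;Vldlr f/f and 5323, 5296 and 1759 in Vldlr f/f, and their part in these values was not tested. Nppa alone was 7446, 3373 and 7678 CPM in Myh6-Cre;Vldlr f/+ and 3783, 4403 and 1300 in Vldlr f/f. Myh8 led the other myosins of Myh6-Cre;Vldlr f/f, at 45.2 CPM in replicate 3, the library high in skeletal muscle markers, and at most 3.25 CPM in the other 8. Ctgf was 76.7, 114 and 842 CPM in Myh6-Cre;Vldlr f/f and 97.6, 74.3 and 916 in Myh6-Cre;Vldlr f/+, against 86.0, 166 and 58.4 in Vldlr f/f. The number 3 libraries of both Cre genotypes, which were highest in Nppb and Ankrd1, were highest in Ctgf too. Nfatc4, a transcription factor activated by calcineurin, was lower in all Myh6-Cre;Vldlr f/f libraries, 8.72, 10.5 and 11.9 against 17.6, 16.3 and 15.6 CPM (log2 difference -0.63, limma adjusted p = 0.997). All Myh6-Cre;Vldlr f/+ libraries also lay below the same controls, at 11.3, 13.8 and 13.6 CPM (log2 difference -0.33, limma adjusted p = 0.999).

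The genes whose levels ran most like each member were taken as the 2 with the highest Pearson r of log2(CPM + 1), over the 12 libraries of the larger rat table or the 9 mouse libraries, as a description. In rat these were Abhd18 (r = 0.96) and Frem2 (r = 0.96) for Myh6, Slc2a8 (r = 0.95) and Iqsec1 (r = 0.94) for Myh7, Fam171a1 (r = 0.88) and Tbck (r = 0.87) for Myl2 and Akr1c14 (r = 0.95) and Sdhb (r = 0.91) for Myl3. For the stress genes they were Mllt11 (r = 0.96) and Serp1 (r = 0.95) for Nppb, Parp1 (r = 0.98) and Rangap1 (r = 0.98) for Acta1, Stx11 (r = 0.96) and Gadd45g (r = 0.95) for Ankrd1 and Ubqln1 (r = 0.86) and Erich1 (r = 0.84) for Rcan1. In mouse they were Haus5 (r = 0.91) and Tnnt1 (r = 0.90) for Myh6, Eif4ebp2 (r = 0.99) and Plcg1 (r = 0.96) for Myh7, Tubg1 (r = 0.98) and Fuom (r = 0.95) for Myl2 and Bola3 (r = 0.89) and Ppil3 (r = 0.88) for Myl3. For the rest they were Clcc1 (r = 0.97) and Cyb561 (r = 0.95) for Nppb, Aimp1 (r = 0.97) and Ttll11 (r = 0.97) for Acta1, Art3 (r = 0.95) and Aldh1a1 (r = 0.95) for Ankrd1 and Tatdn2 (r = 0.99) and Adora1 (r = 0.98) for Rcan1. No gene was named for the same member in both species. Among the members, Myh6 and Myh7 had r = 0.72 in rat and -0.71 in mouse.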

How the data were processed

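RNA-seq libraries of 16 rat and 9 mouse samples were read from 3 deposited tables. The CPM values were made by the authors, per the submitters' processing notes with HISAT2 2.1.0, StringTie 1.3.4 and edgeR 3.20.9 on rn6 and mm10, whose roles and settings are not given in the sources used here. Of the columns 23 matched a label by name and the 2 Control columns by elimination, and 4 rows with a repeated name were left out per table. CPM are not counts, so log2(CPM + 1) was fitted with limma 3.58.1 (R 4.3.3, trended variance), with all groups of a table in 1 fit, genes at 1 CPM or more in 2 (rat) or 3 (mouse) libraries, and Benjamini-Hochberg adjustment over all genes. The fit was also run on simulated data, whose outcome is not given. Those values were drawn independently for each library, so they lack the shared deviations between libraries described below. Fold differences on this scale understate those of low genes. The Myh7 to Myh6 ratio was tested by exact permutation (SciPy 1.17.1). Tables used Python 3.11.15 with pandas 2.3.3 and NumPy 2.4.6, and figures matplotlib 3.10.9.

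The members, gene lists and tests were chosen with earlier results of these data known. Listed genes were named where called, or else where the difference was the largest of the list among genes with a group mean of 5 CPM or more. Same-numbered libraries of the Cre genotypes deviated together over genes (r = 0.46, 0.44 and 0.33), and those of different numbers had r = -0.39 to 0.085. Deviations were taken from each group's own mean, so within a group they cancel out for each gene. Positive values for the same number therefore push those for different numbers down, and the contrast is not separate evidence of a pairing. Vldlr f/f replicate 2 deviated as much with replicate 1 of Myh6-Cre;Vldlr f/+ (r = 0.41) and of Myh6-Cre;Vldlr f/f (r = 0.44). No label states a pairing, so it is not established. The alternatives were a pseudocount of 0.1, no filter, 2 groups fitted alone, a replicate block, 3 other scalings and each library left out. A block with the 2 Cre genotypes fitted alone was added after seeing the data. Sequences came from RefSeq (rat, GRCr8) and GENCODE M21 (mouse, GRCm38/mm10). Rat coordinates are on a newer build than the authors' and were used only for the promoters.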

Additional observations from a re-analysis of the deposited data

How the results depend on the processing

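The count of genes called was unstable in rat. For si-Vldlr it was 4, and 8 with the 2 groups fitted alone. For Reelin it was 2, and 13 alone. For Vldlr OE it was 1, 4 with no filter on low CPM and 8 alone. For si-Thbs1 it was 6 and 0 with no filter. Leaving out 1 library gave 4 to 167 for si-Vldlr (167 without si-Control_v replicate 1, 7 without si-Vldlr replicate 1) and 5 to 10 for Reelin (5 and 10 without PBS replicates 1 and 2, 8 and 6 without Reelin replicates 1 and 2). It gave 2 to 257 for Vldlr OE (80 and 4 without Control columns 1 and 2, 2 and 257 without Vldlr OE replicates 1 and 2). It gave 14 to 185 for si-Thbs1 (185 and 36 without si-Control_t replicates 1 and 2, 22 and 14 without si-Thbs1 replicates 1 and 2). In the rat fits the lone sample left in an arm is assumed to vary like the other groups. The count was 1 in place of 0 when Vldlr f/f was compared with Myh6-Cre;Vldlr f/f alone or without Vldlr f/f replicate 1, and with Myh6-Cre;Vldlr f/+ without its replicate 3. It was also 1 for Myh6-Cre;Vldlr f/f relative to Vldlr f/f when scaled to cardiomyocyte markers. The cause of these moves was not tested.

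Left-out libraries gave ratio differences of 0.13 to 1.07 for si-Vldlr, -0.10 to 0.13 for Reelin, -0.11 to 0.16 for Vldlr OE and 0.11 to 0.75 for si-Thbs1. In mouse they were -2.42 to -0.91 with Myh6-Cre;Vldlr f/f and -3.03 to -1.52 with Myh6-Cre;Vldlr f/+, both relative to Vldlr f/f, and -0.20 to 1.14 between the Cre genotypes. The sign turned at -0.10 without Reelin replicate 2, -0.010 without PBS replicate 1, -0.085 without Vldlr OE replicate 1, -0.11 without Control column 2 and -0.20 without Myh6-Cre;Vldlr f/f replicate 3. Scaling to cardiomyocyte markers moved the median log2 difference of all genes from -0.020 to 0.20 in si-Vldlr, gave 396 calls there (389 higher and 7 lower, in place of 3 and 1) and 51 for si-Thbs1. It turned Myh7 (0.022), Myl3 (0.018) and Acta1 (0.13) in si-Vldlr, and Ankrd1 (0.012) and Rcan1 (0.057) in Vldlr OE. The other members that turned with no library left out were Ankrd1 with Reelin under median-of-ratios scaling (-0.0074) and Rcan1 in si-Vldlr without mitochondrially encoded genes (-4.8e-05). Leaving out libraries gave Acta1 -0.31 to 0.94 in Myh6-Cre;Vldlr f/f relative to Vldlr f/f, with -0.31 without Myh6-Cre;Vldlr f/f replicate 3. Median-of-ratios scaling moved the median of all genes from -0.11 to 0.00019 in Myh6-Cre;Vldlr f/f relative to Vldlr f/f. Myh6 after si-Vldlr was -1.42 without si-Control_v replicate 1.

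With the replicate number as a block the count for si-Thbs1 was 43. The block left the ratio differences as they were (0.60 for si-Vldlr, 0.015 for Reelin, 0.43 for si-Thbs1), as it must where each number occurs once in each group. Between the 2 Cre genotypes, both block fits called 0 genes. No member's call changed under a block. No blocked fit was possible for Vldlr OE because the Control columns carry no numbers. Depth in reads is unknown.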
